A study of Mus musculus with 8 samples.

Results

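Genes of hepatic iron uptake, storage and hormonal control were followed in liver RNA of mice that lack Sco1, a mitochondrial copper chaperone of cytochrome c oxidase, in hepatocytes. The set was listed by gene symbol, and no measured value enters its rule, though it was drawn up with earlier results of these data known: Hamp, Hamp2, Hfe, Tfr2, Bmp6, Tfrc, Slc11a2, Trf, Fth1 and Slc40a1. Of these 10 genes, 9 had a probe set annotated with their symbol alone, out of 22180 genes measured in that way. The probe set that covers Trf, the plasma iron carrier transferrin, also carries a second symbol and was not used. Each of the 9 was read by 1 probe set.

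Livers came from 8 C57BL/6N mice aged 27 days, and each was hybridised to 1 Affymetrix array. By title, 4 were knockout mice (Alb-Cre Sco1fl/fl) and 4 were controls (Sco1fl/fl), which the source labels call wild-type. All 4 knockout mice carried 1 Albumin-Cre transgene, which the albumin promoter drives in hepatocytes, and floxed alleles of Sco1 only. The genotype labels do not match the control titles for every mouse and split the controls: numbers 1 and 3 were heterozygous for the floxed allele and had the Cre transgene, whereas numbers 2 and 4 lacked Cre and were homozygous for the floxed allele. Every mouse of the study therefore had at least 1 floxed allele. By the specificity of the albumin promoter, the knockout should leave Sco1 intact in Kupffer, endothelial and stellate cells, which whole-liver RNA cannot show. No label gave sex, litter or time of dissection, and nothing beyond the mouse numbers describes the animals as independent, so that p-values measure the spread between these 8 livers.

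The liver is both the main iron store and the source of the hormone that controls iron entry into blood. Hepatocytes secrete hepcidin, which binds the iron exporter ferroportin and has it degraded, so that iron stays inside enterocytes and macrophages. Hepcidin transcription rises when endothelial BMP6 activates SMAD signalling in hepatocytes, with HFE, transferrin receptor 2 and hemojuvelin as upstream sensors, and it also rises with IL-6 through STAT3. Copper enters this system through ceruloplasmin and hephaestin, copper-dependent ferroxidases that oxidise the iron leaving a cell. Whether iron regulation responds in livers with a copper chaperone knocked out in hepatocytes is the question of the comparison.

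Sco1 itself read 7.59 ± 0.10 in knockout and 8.00 ± 0.15 in wild-type livers (log2 RMA values, SD, n = 4 each), with every knockout array below every control, and its difference of -0.41 ± 0.09 (SE) missed the threshold over all genes (adjusted p = 0.0633). Array medians lay at 5.79 to 5.89 and arrays of 1 group correlated across genes at 0.9915 to 0.9954. Hepatocyte markers identified the tissue: Alb averaged 13.85 and 13.84 in the groups and Ttr 13.65 and 13.66. Of 6 such markers 2 were higher and 4 lower in the knockout, and none passed an adjusted p of 0.05 (limma). Serpina1e alone had an unadjusted p under 0.05, which 16.7% of all genes had, and differed by -0.23 ± 0.07 (SE). On this log2 scale a difference of 1 is a 2-fold change. Some livers stood apart in other genes. The mean of the Y-linked genes Eif2s3y, Kdm5d and Uty was 7.36 in knockout mouse 4 and 8.60 to 8.86 in the other 7 mice, and the clock output gene Dbp was at 9.66 in knockout mouse 1 and 9.86 in wild-type mouse 1 against 6.87 to 7.33 in the other 6.

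None of the 9 iron genes passed an adjusted p of 0.05 between knockout and wild-type livers (limma with Benjamini-Hochberg adjustment over all 22180 genes), where 1.15% of all genes passed. At an unadjusted p under 0.05 there were 2 of the 9, Hfe and Slc11a2, both lower in the knockout, against 16.7% of all genes. In none of the 9 did the groups separate without overlap, against 10.7% of all genes. Differences were positive for 6 and negative for 3, with a median of 0.13, against 0.03 over all genes. Their median size, sign aside, was 0.24, against 0.11 over all genes, while the SEs of the 9 differences ran up to 0.32, that of Tfrc. Exact permutation tests over the 70 assignments of 4 arrays out of 8, two-sided and with a smallest possible p of 0.0286, gave at best p = 0.0571, for Hfe and for Fth1.

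**Figure D1:**
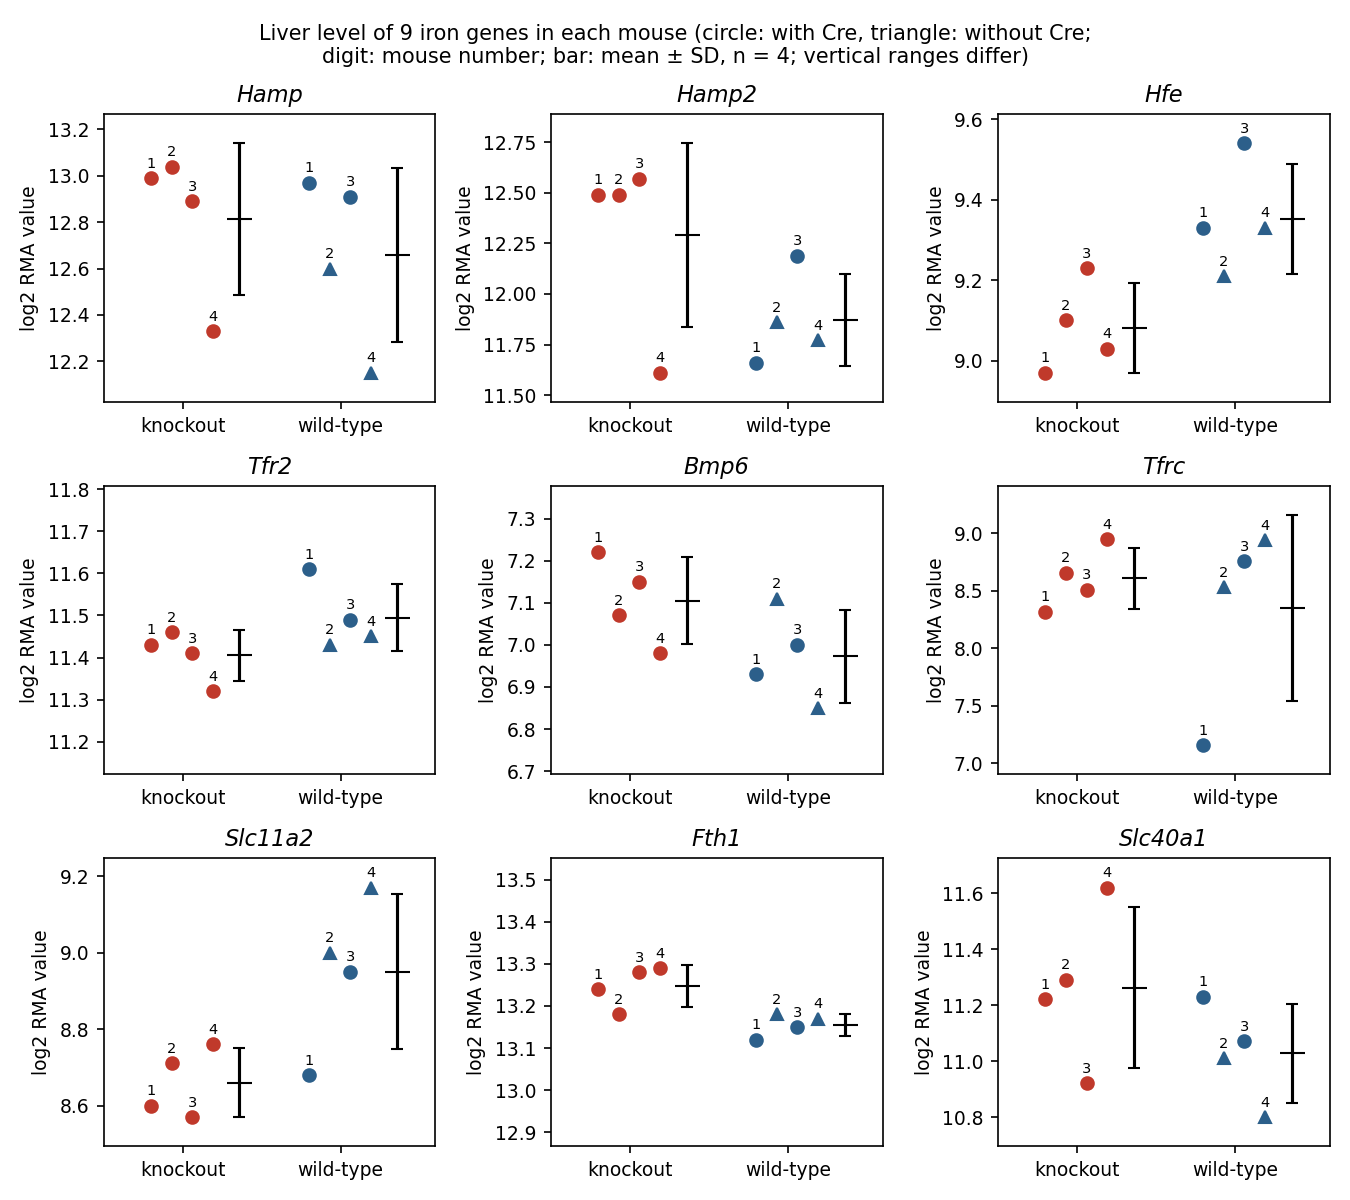
Level of each of the 9 iron genes in each liver (vertical axes, log2 RMA value, with a range of its own in each panel), with knockout mice in red and wild-type mice in blue, circles for mice with Cre and triangles for mice without. Black bars give the mean and SD of 4 mice. The groups overlap in every panel, with knockout mouse 4 apart from its group in Hamp2 (11.61) and wild-type mouse 1 low in Tfrc (7.16).

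Hepcidin is encoded in the mouse by Hamp, which makes the iron-regulating hormone, and by the neighbouring copy Hamp2. The upstream sequences of the pair are shown because they are close copies that differ in a motif through which BMP signalling acts on hepcidin. In the 250 bases before the annotated start, 227 of 253 aligned positions were identical (89.7%), with 20 substitutions and 6 gap positions. The last 150 bases before the start of each gene follow, 5′ to 3′ in the direction of transcription, from RefSeq on GRCm38.p6. Hamp lies at chr7:30944030-30944179 and Hamp2 at chr7:30924182-30924331, both on the minus strand. Capitals mark, in order, the core of the BMP-responsive element in Hamp with its aligned bases in Hamp2, and a STAT-type motif.
Hamp: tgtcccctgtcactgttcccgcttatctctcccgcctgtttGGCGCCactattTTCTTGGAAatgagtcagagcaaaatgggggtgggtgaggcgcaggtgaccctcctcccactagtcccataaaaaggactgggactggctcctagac
Hamp2: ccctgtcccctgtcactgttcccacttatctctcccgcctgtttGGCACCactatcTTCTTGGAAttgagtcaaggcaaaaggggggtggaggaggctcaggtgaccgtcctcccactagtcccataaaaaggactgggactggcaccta

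The motif GGCGCC, the same on both strands, began 109 bases before the start of Hamp. Its aligned bases in Hamp2 differed by G4A, counted from 1 at the 5′ end of the Hamp motif. The STAT-type motif TTCNNNGAA, also the same on both strands, was present in both genes, 97 bases before the start of Hamp and 94 before that of Hamp2. Over the same 250 bases before the start in 32851 promoter windows, 9.59% held GGCGCC, 7.02% held TTCNNNGAA and 0.368% held both. Of the 9 iron genes 7 had 11 windows in the table, and apart from the hepcidin genes only 1 of 2 Tfrc windows held either motif, GGCGCC. A match describes letters and not a bound site. Array probes of such close copies may read each other's transcripts, so the values of Hamp and Hamp2 are not fully separate.

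Hamp was measured at 12.99, 13.04, 12.89 and 12.33 in knockout mice 1 to 4 and at 12.97, 12.60, 12.91 and 12.15 in wild-type mice 1 to 4. The groups overlapped over most of their range, and mouse 4 was lowest in each. Means were 12.81 ± 0.33 and 12.66 ± 0.37 (SD, n = 4 each), a difference of 0.15 ± 0.19 (SE; 95% interval -0.28 to 0.58; adjusted p = 0.721, limma). The controls with Cre averaged 12.94 and those without Cre 12.38, a gap of 0.56 ± 0.23 that did not pass (adjusted p = 1, limma with 3 groups). The knockout lay at -0.13 ± 0.20 relative to controls with Cre and at 0.43 relative to controls without, and it was -0.02 without wild-type mouse 4, the lowest control. The sign of the Hamp difference thus turned with the controls used.

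Hamp2 stood highest in knockout mice 1, 2 and 3, at 12.49, 12.49 and 12.57, with knockout mouse 4 at 11.61. Wild-type mice read 11.66, 11.86, 12.19 and 11.77. Thus 3 knockout livers lay above every control and the other lay below every control. The difference of 0.42 ± 0.20 (SE; 95% interval -0.02 to 0.86), 1.34-fold, did not pass (adjusted p = 0.324, limma), and the exact permutation p was 0.143. Without knockout mouse 4 the difference was 0.64 ± 0.12 (adjusted p = 0.0479), and with the Y-linked level as a covariate it was 0.68 ± 0.11 (adjusted p = 0.0314). Only under these 2 of 21 alternative settings did any of the 9 genes pass. Both act largely on knockout mouse 4, the single mouse with a low Y-linked level, and are not separate checks. Xist, the transcript of the inactive X chromosome, read 5.01 in knockout mouse 4 and 4.59 to 5.06 in the other mice. All of these values lay below the array medians of 5.79 to 5.89. No liver labelled as female shows how this probe set responds, and the sex of knockout mouse 4 was not tested.

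**Figure D2:**
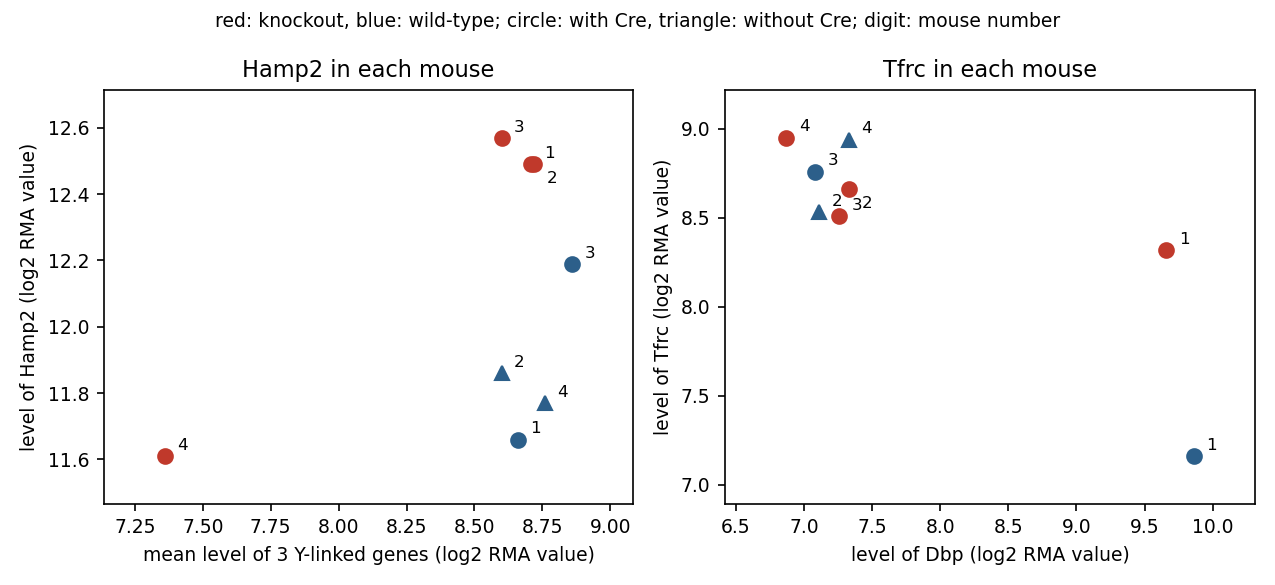
Left, level of Hamp2 (vertical axis, log2 RMA value) against the mean level of 3 Y-linked genes (horizontal axis, log2 RMA value) in each liver. Right, Tfrc against the clock gene Dbp on the same scale. Knockout mouse 4 is the single mouse with a low Y-linked level (7.36) and has the lowest Hamp2 value (11.61), and the mouse 1 livers of both groups have high Dbp (9.66 and 9.86) and the lowest Tfrc value of their group (8.32 and 7.16).

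Upstream of hepcidin, Hfe had the smallest p of the 9 genes. It encodes the MHC-like protein that partners the transferrin receptors and whose loss causes hereditary haemochromatosis. Knockout mice read 8.97, 9.10, 9.23 and 9.03 and wild-type mice 9.33, 9.21, 9.54 and 9.33. Of the knockout livers 3 lay below all controls, and knockout mouse 3 lay above wild-type mouse 2 alone. The knockout mean was 82.8% of the wild-type mean, a difference of -0.27 ± 0.09 (SE; 95% interval -0.48 to -0.07). It did not pass over all genes (unadjusted p = 0.0131, adjusted p = 0.181, limma). It was negative under all 21 alternative settings, between -0.36 and -0.19, and its adjusted p stayed between 0.119 and 0.554 in them.

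Tfr2 encodes transferrin receptor 2, the hepatocyte sensor of iron-loaded transferrin. It read 11.43, 11.46, 11.41 and 11.32 in the knockout and 11.61, 11.43, 11.49 and 11.45 in the wild-type livers. These 8 values lay close together, and the difference of -0.09 ± 0.07 (SE) had a 95% interval of -0.26 to 0.07 (adjusted p = 0.563, limma). Bmp6, the ligand that sinusoidal endothelial cells release as iron rises, read 7.22, 7.07, 7.15 and 6.98 in the knockout and 6.93, 7.11, 7.0 and 6.85 in the wild-type livers. Its difference of 0.13 ± 0.09 (SE; 95% interval -0.06 to 0.32) did not pass (adjusted p = 0.467, limma). Of 8 sinusoidal endothelial markers 7 were higher in the knockout, none passed (limma) and 2 had an unadjusted p under 0.05. Over all 22180 genes, 12676 were higher in the knockout and 16.7% had an unadjusted p under 0.05. The mean level of the 8 markers was 10.09 to 10.22 in the knockout and 9.94 to 10.10 in the wild-type livers. Its part in the Bmp6 difference was not tested. In whole liver, a change in the number of such cells and a change of RNA per cell cannot be told apart.

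Of the uptake genes, Tfrc encodes transferrin receptor 1, the general route of transferrin iron into cells, whose mRNA is stabilised by iron regulatory proteins when iron is scarce. Knockout mice read 8.32, 8.66, 8.51 and 8.95 and wild-type mice 7.16, 8.53, 8.76 and 8.94. Wild-type mouse 1 lay far below the rest, which widened the wild-type SD to 0.81 against 0.27 in the knockout. The difference of 0.26 ± 0.32 (SE; 95% interval -0.44 to 0.97; adjusted p = 0.711, limma) turned to -0.13 ± 0.15 without that mouse and to -0.04 ± 0.14 without the mouse 1 livers of both groups, which had the high Dbp levels. Transferrin receptor 1 is also known as a marker of dividing cells. All 5 measured markers of dividing cells fell in the knockout, as 0.717% of all genes did, by 0.77 to 0.89 (Mki67 fell by 0.77 ± 0.11 and Kif11 by 0.89 ± 0.11), and none of 4 measured erythroid membrane markers passed or had an unadjusted p under 0.05 (limma), with differences of -0.06 to 0.12. The part of either in the Tfrc values was not tested.

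Slc11a2 encodes DMT1, which carries ferrous iron out of endosomes after transferrin uptake. Knockout mice read 8.60, 8.71, 8.57 and 8.76 and wild-type mice 8.68, 9.0, 8.95 and 9.17. Wild-type mouse 1 fell among the knockout livers, and the other 3 controls lay above all of them. The knockout mean was 82.0% of the wild-type mean, a difference of -0.29 ± 0.10 (SE; 95% interval -0.52 to -0.06; unadjusted p = 0.0188, adjusted p = 0.206, limma). Controls with Cre averaged 8.81 and those without 9.08, a gap of -0.27 ± 0.13 that did not pass (adjusted p = 1, limma with 3 groups), and the knockout stood at -0.15 relative to the first and -0.42 relative to the second. Without the mouse 1 livers the difference was -0.35 ± 0.10 (adjusted p = 0.166).

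Storage and export genes showed small differences. Fth1, the ferritin heavy chain that oxidises and stores iron, read 13.24, 13.18, 13.28 and 13.29 in the knockout and 13.12, 13.18, 13.15 and 13.17 in the wild-type livers. Knockout mouse 2 overlapped the controls and the other 3 lay above them, and the difference of 0.09 ± 0.07 (SE; 95% interval -0.06 to 0.24) did not pass (adjusted p = 0.533, limma). Ferritin is controlled mainly at translation, which an array does not measure. These values lie near the highest in the table, 13.88, and whether the array could show a larger rise at that height was not tested. Slc40a1 encodes ferroportin, the only known iron exporter, in both Kupffer cells and hepatocytes. It read 11.22, 11.29, 10.92 and 11.62 in the knockout and 11.23, 11.01, 11.07 and 10.80 in the wild-type livers, a difference of 0.24 ± 0.14 (SE; 95% interval -0.07 to 0.54; adjusted p = 0.423, limma). Knockout mouse 4 had the highest Slc40a1 value and also the highest mean of 8 Kupffer cell and macrophage markers, 10.08. That mean ran from 9.51 to 10.08 in the knockout and from 9.38 to 9.97 in the wild-type livers. All 8 markers were higher in the knockout, none passed (limma) and 1 had an unadjusted p under 0.05. Of all 22180 genes, 12676 were higher and 16.7% had such a p. Wild-type mouse 2 had the highest marker mean of the controls, 9.97, with an Slc40a1 value of 11.01. With each array left out in turn, the Slc40a1 difference ranged from 0.12 without knockout mouse 4 to 0.35 without knockout mouse 3. The part of macrophage content in the Slc40a1 difference was not tested.

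**Figure D3:**
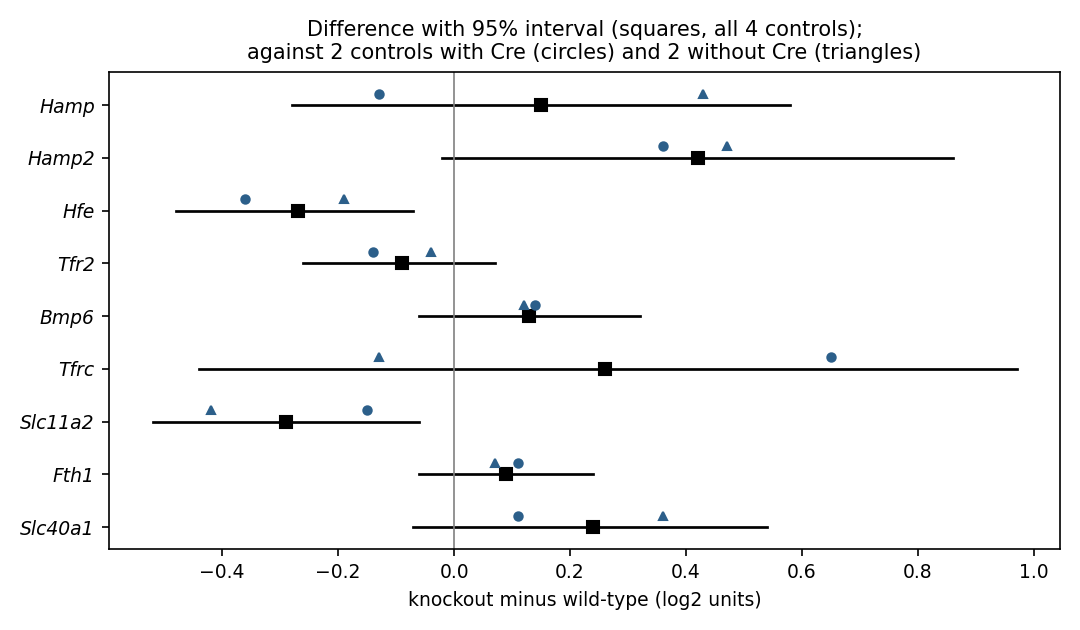
Difference of each iron gene, knockout minus wild-type, in log2 units (horizontal axis). Squares and lines give the fit over all 4 controls with its 95% interval, circles the difference from the 2 controls with Cre and triangles that from the 2 without. Of the 9 intervals, those of Hfe (-0.48 to -0.07) and Slc11a2 (-0.52 to -0.06) leave out 0, and the control class turns the sign of Hamp and Tfrc.

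The wider pathway was read from 5 lists of 54 further iron genes, of which 49 were measured by a probe set of their own. None of the 49 passed (limma with Benjamini-Hochberg adjustment), 7 reached an unadjusted p under 0.05, 3 higher and 4 lower, and in 7 the groups did not overlap, next to the 1.15%, 16.7% and 10.7% of all genes given above. Their median difference was -0.02. The median size of their differences, sign aside, was 0.1, against 0.24 for the 9 genes and 0.11 over all genes.

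Of the 16 measured genes of hepcidin signalling, 7 were higher and 9 lower, none at an unadjusted p under 0.05, and their differences lay between -0.13 and 0.17. Id1, a BMP-induced inhibitor of helix-loop-helix factors, averaged 6.86 ± 0.14 in the knockout and 6.88 ± 0.29 in the wild-type livers, and Smad7, a feedback inhibitor of the pathway, 7.72 ± 0.18 and 7.74 ± 0.15 (SD, n = 4 each). The 95% intervals of their differences were -0.32 to 0.27 and -0.26 to 0.22. The Id1 difference ran from -0.22 to 0.18 over the alternative settings, with controls at 7.08 with Cre and 6.69 without. Smad6 and Atoh8, also induced by BMP signalling and named after their values were seen, differed by -0.13 ± 0.11 and -0.06 ± 0.11 (SE). Tmprss6, the protease that cleaves hemojuvelin and restrains hepcidin, differed by -0.05 ± 0.07. Bmp2, an endothelial ligand like Bmp6, differed by 0.17 ± 0.12, and the receptor genes Acvr1 and Acvr2a by -0.12 ± 0.08 and -0.13 ± 0.10 (SE, adjusted p of 0.489 to 0.542).

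Genes of the inflammatory input differed in both directions. Of 7 measured, 2 were higher and 5 lower, none passed (limma), and 2 had an unadjusted p under 0.05. Stat3, which carries the IL-6 signal to the hepcidin promoter, read 11.16 to 11.39 in the knockout and 11.40 to 11.62 in the wild-type livers, without overlap, and differed by -0.19 ± 0.08 (SE, adjusted p = 0.271, limma). Socs3, its feedback inhibitor, differed by -0.15 ± 0.08. Crp, an acute phase protein of the liver, lay the other way at 0.18 ± 0.07 (adjusted p = 0.238, limma). Its knockout values of 13.16 to 13.26 lay above its wild-type values of 12.91 to 13.09. Saa2 and Orm2, also acute phase genes and named after their values were seen, differed by -0.18 ± 0.41 and -0.07 ± 0.12 (SE). Hp, another such gene, counted in the import and export list, differed by -0.16 ± 0.07.

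Among 7 measured genes of iron sensing and ferritin turnover none passed (limma), and 1 had an unadjusted p under 0.05. Fbxl5, the iron-binding ubiquitin ligase subunit that has iron regulatory protein 2 degraded, differed by -0.23 ± 0.10 (SE, unadjusted p = 0.0354, adjusted p = 0.26, limma). The controls with Cre had a mean Fbxl5 level of 8.01 and those without Cre 7.74. Pcbp1 and Pcbp2, chaperones that deliver iron to ferritin, differed by 0.23 ± 0.11 and 0.16 ± 0.09 (adjusted p of 0.311 and 0.401). The light chain of ferritin, Ftl1, had no probe set of its own.

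Of 15 genes of other import, reduction and export steps, 7 were higher and 8 lower, none passed (limma) and 4 had an unadjusted p under 0.05. Lcn2, a secreted binder of iron-carrying siderophores that inflammation induces, had the smallest p of all 49. It read 9.06, 9.48, 9.39 and 9.02 in the knockout and 8.76, 8.81, 8.73 and 8.83 in the wild-type livers. All 4 knockout values lay above all controls, and the difference of 0.45 ± 0.11 (SE), 1.37-fold, missed the threshold (adjusted p = 0.0713, limma; 0.0404 to 0.303 over the alternative settings, of which 3 passed). Mcoln1, a lysosomal channel that releases iron among other cations, differed by 0.27 ± 0.09, and Steap3, the endosomal ferrireductase that works ahead of DMT1, by -0.24 ± 0.09 (SE, adjusted p of 0.18 and 0.204).

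Cp, the gene of the copper-dependent plasma ferroxidase ceruloplasmin, read 12.69, 12.79, 12.55 and 12.77 in the knockout and 12.80, 12.92, 12.82 and 12.80 in the wild-type livers. Every knockout liver lay below every control, though the highest knockout value and the lowest control nearly touched, and the difference of -0.14 ± 0.08 (SE; 95% interval -0.31 to 0.04) did not pass (adjusted p = 0.404, limma). The exact permutation p of this single gene was 0.0286, the smallest that 4 arrays against 4 allow. Every gene whose groups do not overlap gets this value, which held for 7 of the 49 further iron genes and 10.7% of all genes. Copper loading and activity of the protein were not measured. The 4 measured genes of mitochondrial iron and iron-sulfur clusters did not pass either, nor did any reach an unadjusted p under 0.05: the mitochondrial iron importers Slc25a37 and Slc25a28 differed by 0.05 ± 0.11 and -0.09 ± 0.07, and the cluster scaffold Iscu by -0.10 ± 0.07 (SE, adjusted p of 0.519 to 0.863).

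**Figure D4:**
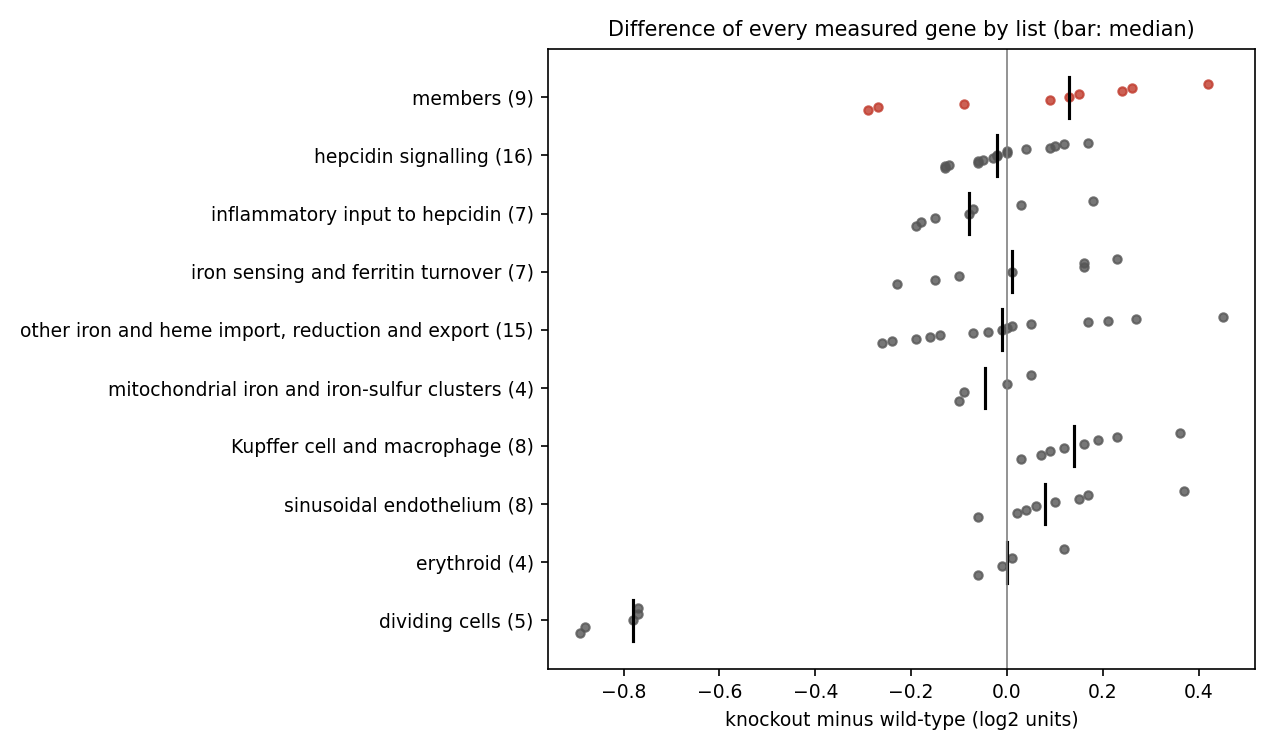
Difference of every measured gene, knockout minus wild-type in log2 units (horizontal axis), for the 9 iron genes, the 5 further iron lists and 4 lists of other cells, with the number measured in brackets and a bar at each median. Iron genes lie between -0.29 and 0.45, while the 5 markers of dividing cells lie between -0.89 and -0.77.

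The 5 genes whose pattern was most like that of Hamp over the 8 livers, of 10633 ranked by Pearson correlation, were Atp6v0d2, a V-ATPase subunit (r = 0.931), Rdh16f2, a retinol dehydrogenase (r = 0.912), Clmp, an adhesion protein (r = 0.909), Sdc4, a heparan sulfate proteoglycan (r = 0.900), and Fitm1, a lipid droplet protein (r = 0.878). They were picked as the highest of many and are given as a description. None of the 5 passed between the groups, with differences of 0.00 to 0.21 and adjusted p of 0.738 or more (limma). Among the iron genes themselves, correlation with Hamp over the same livers was highest for Hamp2, at 0.67, and lowest for Slc11a2, at -0.69.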

How the data were processed

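Groups were taken from the sample titles. The deposited log2 values are the authors' RMA summaries of 39137 probe sets, for which the submitters' processing notes name oligo version 1.24. The scale is not stated and was inferred from RMA itself and from a range of 1.28 to 13.88. RMA equalises the distributions of arrays and draws differences toward 0. The chip definition and the build are not given in the sources used here. Platform annotation gave 1 symbol to 23521 probe sets, several to 1814 and none to 13802, and the probe set of highest mean stood for a gene. Differences are knockout minus wild-type from limma (version 3.58.1, R 4.3.3; lmFit and eBayes with group as its single term), adjusted by Benjamini-Hochberg over 22180 genes at a threshold of 0.05, and the fit was tested on simulated data. Precision is limited by 4 arrays a group. No label says whether mouse numbers pair the livers, so the main fit did not pair them. The 9 genes, the lists, the alternatives and the named genes (the 3 of smallest p in each list, with Cp, Ftl1, Id1, Smad7 and Tmprss6) were chosen with earlier results of these data known. Mt1, Dbp and Xist were added after their values were seen. Promoters came from RefSeq on GRCm38.p6 and were aligned with Biopython version 1.88. Python version 3.11.15, pandas version 2.3.3 and matplotlib version 3.10.9 were used.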

Additional observations from a re-analysis of the deposited data

Results flagged for a closer look

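Hamp2 in knockout mouse 4, at 11.61, stood apart from the other 3 knockout livers, at 12.49 to 12.57. The gap to the nearest of them was 0.918 of the group's range, above Dixon's critical value of 0.829. This was 1 of 18 groups of 4 tested over the 9 genes, and chance alone marks about 1 group in 20.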

How the results depend on the processing

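Over the 9 iron genes and 21 settings each, 182 of 189 differences kept their sign and their side of the threshold. The count of higher genes past the threshold, 0 in the comparison, was 1 with the Y-linked level as a covariate. With each array left out in turn the Hamp difference ranged from -0.02 to 0.32, the Tfrc difference from -0.13 to 0.46 and that of Hamp2 from 0.32 to 0.64, and the count ranged from 0 to 1, the call being Hamp2 without knockout mouse 4, and the count of lower genes was 0 in every setting. The sign turned in 5 cases, none of them past the threshold: Hamp was at -0.13 against controls with Cre alone and at -0.02 without wild-type mouse 4, and Tfrc was at -0.13 against controls without Cre alone, at -0.13 without wild-type mouse 1 and at -0.04 without both mouse 1 arrays, a setting chosen after seeing the data. The cause of these turns was not tested. With mouse number as a replicate block, 0 of the 9 genes passed, and the block changed no call. Livers of the same number deviated together at correlations of -0.10 to 0.27 across genes. Over the settings adjusted p was 0.0967 to 0.625 for Slc11a2 and 0.26 to 0.827 for Slc40a1. Of the 49 further iron genes, only Lcn2 passed under any setting: with a trended robust variance, with genes above the median level only and with array weights. The 4-against-4 design leaves intervals as wide as -0.44 to 0.97 for Tfrc, and differences within it cannot be told apart at this number of arrays.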

Other observations

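Knockout mouse 4, lowest of its group in Hamp and Hamp2, was also lowest of its group in Mt1, a metallothionein gene that metals induce. Mt1 read 10.06, 10.34, 10.01 and 9.39 in knockout mice 1 to 4 and 9.34, 8.46, 8.70 and 8.52 in wild-type mice 1 to 4, and it rose by 1.2 ± 0.22 (SE) in the knockout (adjusted p = 0.0312, limma). Knockout mouse 4 still lay above all controls in Mt1, whereas it lay below all controls in Hamp2. Among the controls, mouse 1 had the highest Mt1 value and the highest Hamp value, 12.97, but the lowest Hamp2 value, 11.66. A link between Mt1 and the hepcidin genes was not tested.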
